A study of Mus musculus with 6 samples.

Results

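Expression of 10 keratin genes of the bladder urothelium (Krt4, Krt5, Krt7, Krt8, Krt13, Krt14, Krt15, Krt18, Krt19 and Krt20) was examined in droplet-based single-cell RNA-seq libraries of bladder mucosa from mice. The genes were taken from a list and matched by Ensembl ID. All 10 were found among the 14450 genes listed in each of the 6 tables, and they were 10 of the 23 keratin genes listed there. All mice were wild type C57BL/6 animals, 8 weeks old. Healthy mice gave 2 libraries and served as controls. Acutely injured mice had received 1 injection of cyclophosphamide (CPP), a drug whose excreted metabolites damage the urothelium, at 150 mg/kg, and were sampled after 48 h. Chronically injured mice had received 4 injections at 75 mg/kg each in a course of 11 days and were sampled 48 h after the last. Each injured condition also gave 2 libraries, and each library came from mucosa peeled off the bladder. Each condition had 4 to 6 mice, and which of them entered which library is not given in the sources used here, so the p-values below measure the spread between libraries only.

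The tables held 54604109 to 111985678 unique molecular identifiers (UMIs, 1 per captured mRNA molecule), with a median of 5530 to 9138 per barcode. After removal of doublets and of a cluster that could not be named, 48722 of the 55398 cells that passed the filter were kept, of which 36725 were urothelial, 9972 mesenchymal and 7346 urothelial and cycling. The left-out cluster held 1830 of the cells that passed the filter, cells called doublets included, of which 1661 came from acute replicate 2. Healthy replicate 1 and acute replicate 2 held the most mesenchymal cells (1850 and 4462, against 142 to 1701), and the comparisons of injury with health were also computed without both, an alternative chosen after seeing the data. Chronic replicate 1 had the smallest share of basal cells (4.44% of non-cycling urothelial cells, against 19.1% to 22.8%). Each pair of libraries shared 36 to 208 barcodes. Levels are given as CPM, the UMIs of a gene per 1000000 UMIs summed over the cells of a class in 1 library. Because this assay counts the 3' end of each molecule once, CPM values were compared between genes without division by transcript length.

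Keratins are the proteins of the intermediate filaments of epithelial cells. A filament needs a type I and a type II keratin in equal amounts, so the genes are expressed in pairs. Krt4, Krt5, Krt7 and Krt8 encode type II keratins, and the other members encode type I keratins. In stratified epithelia Krt5 pairs with Krt14 or Krt15 in the basal layer, Krt4 with Krt13 above it in many mucosae, and Krt8 with Krt18 in simple epithelia and luminal cells. The urothelium is built of basal cells on the basement membrane, intermediate cells, and large superficial (umbrella) cells facing the urine, which are known for Krt20 and for the uroplakins, the proteins of their apical membrane.

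On the mouse genome (GRCm38, GENCODE M21), the 4 type II genes lie on chromosome 15 and 5 of the 6 type I genes on chromosome 11. Krt18 is the exception. It lies at chr15:102028180-102032027 on the plus strand, 23697 bases from the end of Krt8 (chr15:101996698-102004482, minus strand), its partner. Krt13, Krt15 and Krt19 follow each other on chromosome 11, with gaps of 10191 and 4881 bases between their annotated ends. Krt5, Krt7 and Krt8 each overlap an annotated gene on the opposite strand (Gm44323, Gm671 and Gm36026). How the counting used strand is not given in the sources used here, so the share of reads from those neighbours is unknown.

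The 250 bases before the transcription start (RefSeq, GRCm38.p6) are shown for a basal-high type II gene, a basal-high type I gene of low level and the gene with the largest rise towards the superficial layer. All are on the minus strand and printed 5′ to 3′ in the direction of transcription. Capitals mark the stretch ATAAAAG and the TATA box TATAAA, searched on both strands.
Krt5, chr15:101712906-101713155: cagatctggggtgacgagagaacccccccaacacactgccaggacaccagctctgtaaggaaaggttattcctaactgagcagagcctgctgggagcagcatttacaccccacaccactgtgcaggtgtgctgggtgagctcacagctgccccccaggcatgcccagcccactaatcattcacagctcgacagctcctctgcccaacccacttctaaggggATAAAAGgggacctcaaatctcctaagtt
Krt13, chr11:100121567-100121816: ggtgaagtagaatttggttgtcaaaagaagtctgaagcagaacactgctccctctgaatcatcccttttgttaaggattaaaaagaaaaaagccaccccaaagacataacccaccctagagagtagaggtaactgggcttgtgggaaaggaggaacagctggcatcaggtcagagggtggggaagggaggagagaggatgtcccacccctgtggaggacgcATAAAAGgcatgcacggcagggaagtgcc
Krt20, chr11:99438154-99438403: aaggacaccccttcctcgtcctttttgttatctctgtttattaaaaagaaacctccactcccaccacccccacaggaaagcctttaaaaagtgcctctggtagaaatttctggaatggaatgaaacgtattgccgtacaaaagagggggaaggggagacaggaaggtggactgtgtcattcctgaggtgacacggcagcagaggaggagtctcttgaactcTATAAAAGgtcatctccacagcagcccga
The stretch ATAAAAG, which was chosen after these windows had been read, began 28 or 29 bases before the start in all 3, and 4.83% of 32851 listed promoter windows of that length hold it on either strand. The table listed 8 windows for 7 of the 10 members (not for Krt4, Krt15 and Krt19), and 4 of the 8 held ATAAAAG. The fourth was that of Krt7, where it began 7 bases before the start. It was absent from the windows of Krt8, Krt14 and Krt18 and from a second window of Krt13. The starts of the 3 windows shown lie 0 to 7 bases from the start annotated by GENCODE, and those of the other 5 lie 36 to 1518 bases from it. TATAAA, which overlaps the stretch in Krt20, was found in Krt20 alone among the 8 (12.4% of all windows). The AP-1 site TGACTCA (4.46% of all windows) was found only in the second window of Krt13, and the GC box GGGCGG (32.7%) only in that of Krt7.

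To place the cells along the urothelium without using any keratin, each urothelial cell was scored for 9 superficial markers (such as Upk1a, Upk2 and Upk3a) minus 9 basal markers (such as Trp63, Itga6 and Itgb4). The lowest 20% of scores were called basal, the highest 10% superficial and the rest intermediate, with the same bounds in all libraries. Non-cycling basal cells numbered 291 to 1180 per library, intermediate cells 2632 to 5148 and superficial cells 202 to 1115. Summed CPM of the basal markers was 806 to 1263 in basal cells and 127 to 168 in superficial cells, and the superficial markers ran from 1568 to 3417 in basal cells and from 10827 to 16898 in superficial cells. Those values check the layers against their own lists and are no independent test. Of the other cell types, mesenchymal markers summed to 102 to 518 CPM over all layers without an order along them, macrophage markers to 17.8 to 79.5, endothelial markers to at most 7.47 and NK and T cell markers to at most 2.86 CPM. Mural cell markers summed to 10.3 to 28.2 CPM in basal and 144 to 274 CPM in superficial cells. Rgs5 alone gave 206 ± 44.8 CPM (SD, n = 6) of the last sum, whereas Cspg4, Des, Myh11 and Actg2 each stayed below 2 CPM on average. Its part in the keratin levels was not tested.

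All 10 keratins differed between basal and intermediate cells, 5 of them higher and 5 lower in basal cells (edgeR's quasi-likelihood test, adjusted by Benjamini-Hochberg, library as a term). In that comparison 45.4% of all genes tested passed the same threshold, 23.6% of the genes tested higher and 21.7% lower. Between superficial and intermediate cells 9 of 10 passed, 4 higher and 5 lower in superficial cells, against 50.5% of all genes (25.5% higher, 25% lower). Between superficial and basal cells 9 of 10 passed, 4 higher and 5 lower, against 58.8% of all genes (29.5% higher, 29.4% lower). The members split into a set that was highest in basal cells (Krt5, Krt14, Krt15, Krt4 and Krt13) and a set that was highest in superficial cells (Krt18, Krt8 and Krt20), with Krt7 and Krt19 changing least.

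Krt15, a type I keratin of basal cells, was the most abundant keratin mRNA of the basal layer. Its level in basal cells was 3019 and 3394 CPM in the healthy, 3726 and 3586 in the acute and 5049.6 and 3443 in the chronic libraries. In superficial cells of the same libraries it was 384, 796, 241, 251, 1154 and 446 CPM. The values of both layers did not overlap, and chronic replicate 1 was the highest library in both. The mean fell from 3703 ± 701 CPM in basal cells to 2161 ± 542 in intermediate and 545 ± 360.3 in superficial cells (SD, n = 6), a change of -2.83 ± 0.21 on the log2 scale (± SE) from basal to superficial with an adjusted p of 5.6e-09 (edgeR). Mesenchymal cells, which should lack Krt15, held 89.3, 240, 181, 220, 519 and 750 CPM in the library order healthy, acute and chronic. Only in chronic replicate 2 was that above the superficial level.

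Krt5, the type II keratin that defines basal cells, followed the same course at a lower level. Basal cells held 821 and 1132 CPM in the healthy, 955 and 921 in the acute and 1075 and 1110.2 in the chronic libraries. Superficial cells held 195 and 263, 74.3 and 71.7, and 212 and 129 CPM. Basal levels thus varied little between libraries, whereas the superficial levels of the acute libraries lay below those of the other 4. Means were 1002 ± 123, 579 ± 59.7 and 158 ± 78.3 CPM in basal, intermediate and superficial cells (SD, n = 6). The basal-to-superficial difference was -2.66 ± 0.19 on the log2 scale (adjusted p = 4.5e-09, edgeR).

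Krt14, the type I keratin of basal progenitor cells, was rare and had the steepest layer difference. Its basal level was 21.9 and 59.99 CPM in the healthy, 30.5 and 25.6 in the acute and 23.5 and 11.02 in the chronic libraries. Intermediate cells of the same libraries held 0.963, 5.73, 2.82, 2.29, 1.83 and 1.15 CPM. All basal values lay above all intermediate values, by 3.505 ± 0.13 on the log2 scale (adjusted p = 8.6e-15, edgeR). Superficial cells held 0.986 ± 0.589 CPM (SD, n = 6). Mesenchymal cells, which should lack Krt14, held 0 to 2.09 CPM in 4 libraries, 14.7 in chronic replicate 2 (7 UMIs) and 22.8 in acute replicate 1 (43 UMIs, held by 0.583% of its cells).

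Krt4 and Krt13, the mucosal pair, were also basal-high in these cells. Krt4 was at 360.3, 411, 411, 233, 567 and 362 CPM in basal cells and at 49.1, 75.9, 74.05, 26.8, 95.9 and 33.1 CPM in superficial cells, in the library order healthy, acute and chronic. The lowest basal value was above the highest superficial value, and the difference was -2.65 ± 0.12 on the log2 scale (adjusted p = 1.7e-11, edgeR). Krt13 was much rarer, at 27.4, 9.53, 20.996, 8.18, 21.5 and 15.4 CPM in basal cells. In superficial cells of healthy replicate 1 no Krt13 UMI was counted, which allows a level of up to 1.46 CPM (3 counts, counting error only), and the other libraries held 0.956 to 5.87 CPM. Krt13 was higher in basal than in intermediate cells by 1.023 ± 0.16 on the log2 scale (adjusted p = 2.5e-05, edgeR), with the difference in each library between 0.26 and 2.00.

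Krt18, a type I keratin of luminal cells, was the leading keratin mRNA of the superficial layer. Superficial cells held 6904 and 5884 CPM in the healthy, 10264 and 6301 in the acute and 6919 and 7445 in the chronic libraries. Basal cells held 2117, 1935, 2304, 2542, 2547 and 2054 CPM. The layers were far apart in all libraries, and acute replicate 1 was the highest superficial value. Krt18 rose by 1.83 ± 0.12 on the log2 scale from basal to superficial (adjusted p = 7.0e-10, edgeR). Its partner Krt8 rose from 989 ± 179 CPM in basal to 1370.4 ± 195 in intermediate and 2410.4 ± 316 in superficial cells (SD, n = 6), or by 1.45 ± 0.10 from basal to superficial (adjusted p = 4.0e-09, edgeR).

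Krt20, a type I keratin known as an umbrella cell marker, had the largest rise of the 10. Its superficial levels were 160.3 and 220.0 CPM in the healthy, 248 and 180.2 in the acute and 218 and 211 in the chronic libraries. Basal levels were 23.6, 27.3, 35.7, 17.6, 56.3 and 26.5 CPM. The difference was 2.998 ± 0.14 on the log2 scale (adjusted p = 1.7e-11, edgeR), and chronic replicate 1, which had the fewest basal cells, held the highest basal value. Mesenchymal cells held 4.03, 33.5, 6.37, 10.8, 34.3 and 21.0 CPM of Krt20 in the same library order, above the basal level in healthy replicate 2. At 206 ± 31.2 CPM (SD, n = 6) in superficial cells, Krt20 remained far below Krt18 there.

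Krt7, a type II keratin of simple and transitional epithelia, was at 2234 ± 747 CPM in basal, 2810.3 ± 684 in intermediate and 3066 ± 545 in superficial cells (SD, n = 6). It was lower in basal than in intermediate cells by -0.43 ± 0.054 on the log2 scale, in 6 of 6 libraries (adjusted p = 9.9e-07, edgeR). The superficial-to-intermediate difference of 0.22 ± 0.077 (adjusted p = 0.0245, edgeR) was positive in only 3 of 6 libraries by CPM. It was no longer called without healthy replicate 1 (adjusted p = 0.103), healthy replicate 2 (0.0981) acute replicate 1 (0.0760), with layers from sub-clusters (0.215), with bounds set within each library (0.0705) or with cycling called above 4 median absolute deviations (0.0514).

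Krt19, a small type I keratin found in all urothelial layers, was at 1634 ± 438, 1982 ± 329 and 1691 ± 388 CPM in basal, intermediate and superficial cells (SD, n = 6). It was lower in basal than in intermediate cells in 6 of 6 libraries (-0.37 ± 0.047, adjusted p = 1.1e-06, edgeR). Between superficial and intermediate cells its difference was -0.17 ± 0.084 (95% interval -0.34 to 0.0093, adjusted p = 0.107, edgeR). It passed the threshold without the filter on low counts (-0.20, adjusted p = 0.0321), without healthy replicate 1 (-0.26, adjusted p = 0.00623), with stricter score bounds (-0.43, adjusted p = 0.000149) and with layers from sub-clusters (-0.33, adjusted p = 0.00170). Between superficial and basal cells it was 0.21 ± 0.13 (-0.058 to 0.48, adjusted p = 0.167), and it passed without acute replicate 2 (0.31, adjusted p = 0.0477) and with layers from sub-clusters (0.25, adjusted p = 0.0457), while stricter score bounds gave -0.038 (adjusted p = 0.810).

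**Figure D1:**
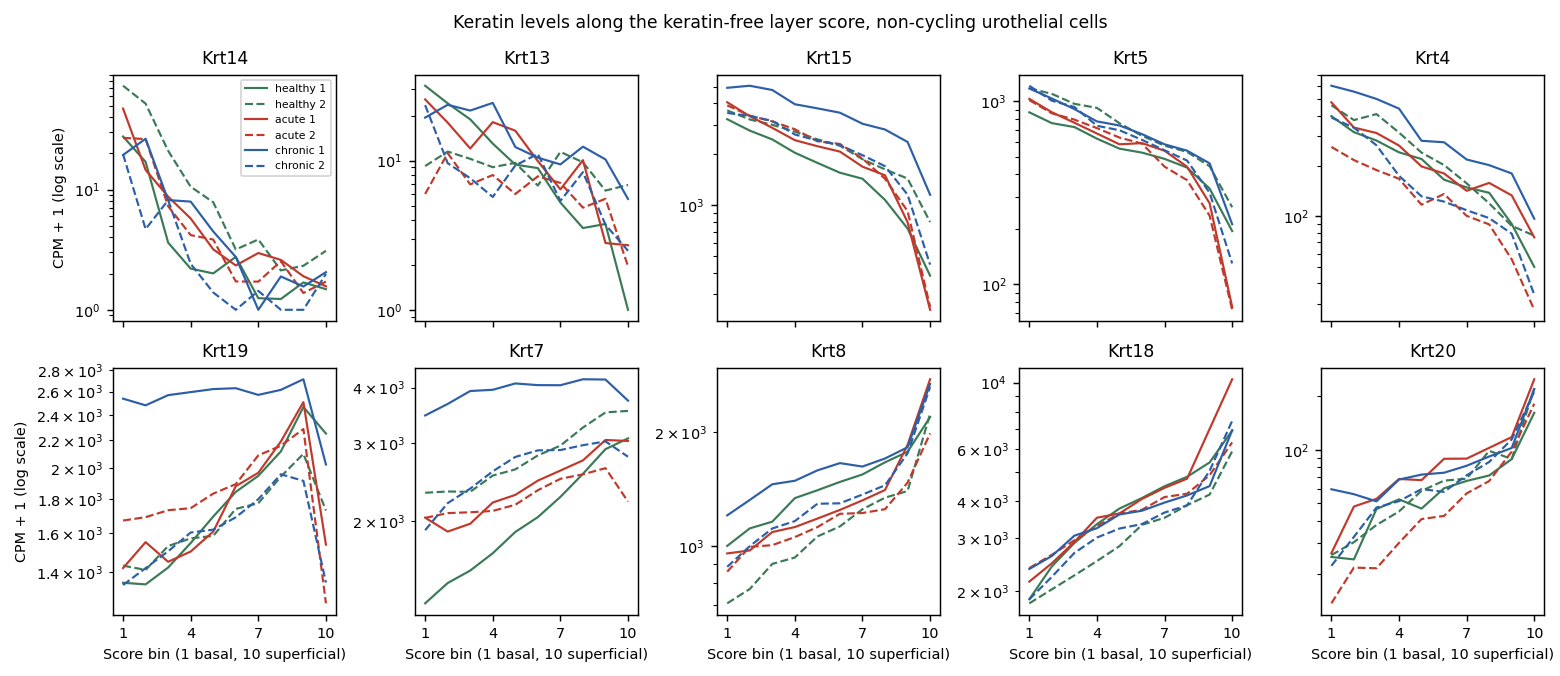
Level of each keratin (CPM + 1, log axis) in non-cycling urothelial cells along 10 bins of the keratin-free score, from the most basal to the most superficial, with 1 line per library. The means of Krt5, Krt15 and Krt4 descend and those of Krt18, Krt8 and Krt20 ascend over the whole range, whereas the mean of Krt19 peaks in bin 9.

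Non-cycling cells were also divided into 10 bins bounded at every 10th percentile of the score over all urothelial cells, cycling ones included and libraries weighted equally, which put 2326 to 3207 of them in a bin. Mean Krt14 was 34.7 CPM in bin 1, 22.5 in bin 2 and 8.51 in bin 3. The means of Krt5, Krt15 and Krt4 were lower at each of the 9 steps, and those of Krt18, Krt8 and Krt20 higher at each of 9. The last step was the longest for Krt20, from 101 CPM in bin 9 to 206 in bin 10, and all 6 libraries were higher in bin 10. Krt19 climbed from 1624 CPM in bin 1 to 2330.2 in bin 9 and was 1691 in bin 10, lower than in bin 9 in 6 of 6 libraries. Krt7 reached 3218 CPM in bin 9 and 3067 in bin 10, where only 4 of 6 libraries were lower. The bins were described without a test.

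**Figure D2:**
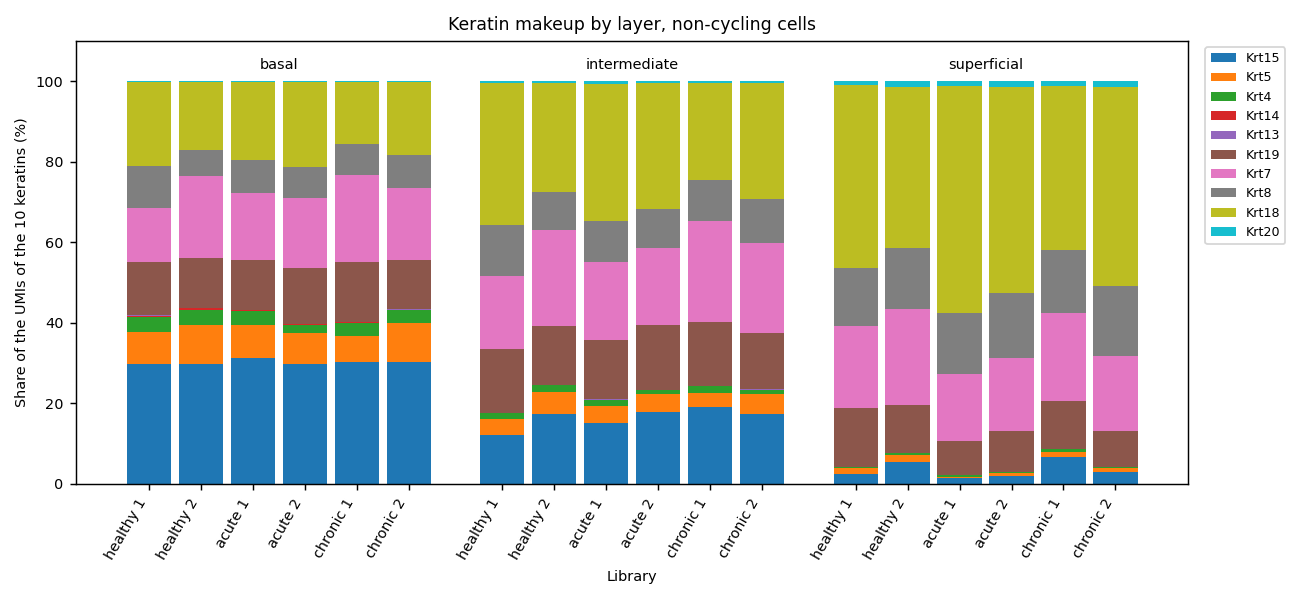
Share of each keratin among the UMIs of all 10 (%), by layer and library, non-cycling cells. Krt15 holds 29.6% to 31.3% of basal keratin UMIs in all 6 libraries, and Krt18 leads in superficial cells.

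The 10 genes together took 1.23 ± 0.23% of all UMIs in basal, 1.305 ± 0.17% in intermediate and 1.54 ± 0.20% in superficial cells, against 0.22 ± 0.14% in mesenchymal cells (SD, n = 6). In basal cells Krt15 made up 30.1 ± 0.620% of keratin UMIs, followed by Krt18 (18.6%) and Krt7 (17.9%). Krt18 and Krt7 were not ordered there, since Krt18 was higher in 3 of 6 libraries, and neither were Krt5 and Krt8 (Krt5 higher in 2 of 6). Krt20, Krt14 and Krt13 closed the basal order, each above the next in 4 of 6 libraries. In superficial cells Krt18 made up 47.2 ± 6.41% of keratin UMIs, Krt7 19.9%, Krt8 15.7%, Krt19 11.01%, Krt15 3.503% and Krt20 1.34%. The superficial order was Krt18, Krt7, Krt8, Krt19, Krt15, Krt20, Krt5, Krt4, Krt13 and Krt14, with the neighbours Krt20 and Krt5 in that order in only 4 of 6 libraries.

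Pairing was examined as the ratio of summed type I to summed type II UMIs. It was 1.82 and 1.48 in basal cells of the healthy libraries, 1.77 and 1.89 in the acute and 1.56 and 1.55 in the chronic libraries. In superficial cells of the same libraries it was 1.76, 1.41, 2.07, 1.86, 1.53 and 1.69. The libraries thus spread somewhat more widely in superficial than in basal cells. Geometric means were 1.67, 1.65 and 1.71 in basal, intermediate and superficial cells. None of the 3 differences between layers was detected (0.015 ± 0.040 for basal minus intermediate, 0.048 ± 0.098 for superficial minus intermediate and 0.033 ± 0.12 for superficial minus basal on the log2 scale, SD, n = 6, two-sided exact sign-flip permutation p = 0.375, 0.344 and 0.594). With layers drawn from sub-clusters the superficial differences were 0.13 against intermediate and 0.13 against basal (two-sided exact permutation p = 0.0312 and 0.0312, unadjusted). Over all layers and libraries the ratio lay between 1.41 and 2.07.

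**Figure D3:**
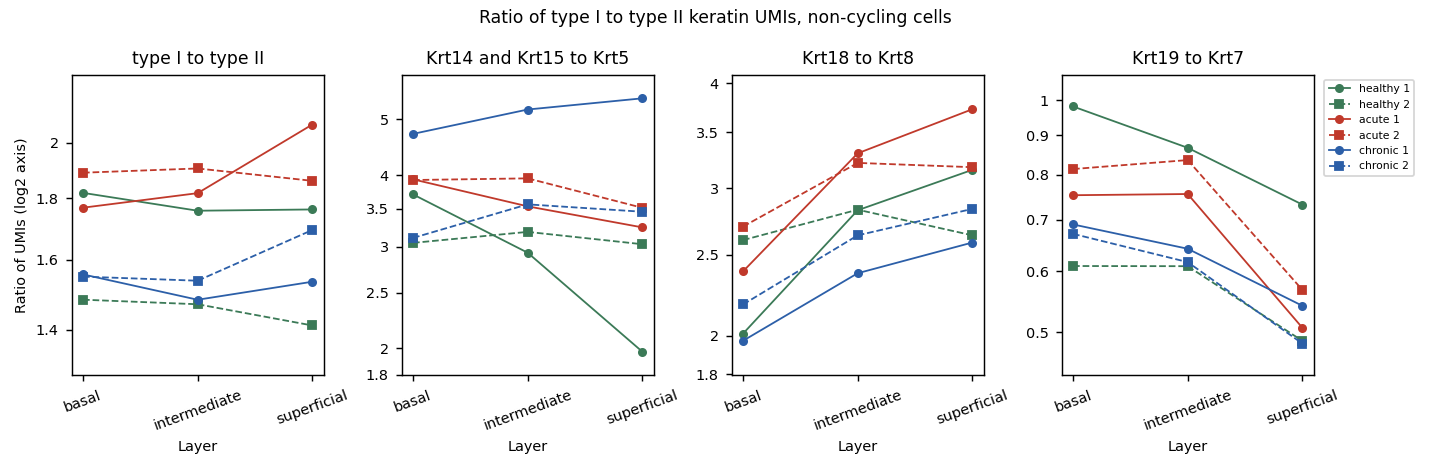
Ratio of type I to type II keratin UMIs (log2 axis) by layer for all members and for single pairs, with 1 point per library. The summed ratio stays between 1.41 and 2.07, whereas the mean Krt18:Krt8 is lowest in basal and Krt19:Krt7 lowest in superficial cells.

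Within single pairs the ratio differed more between layers. Krt18 to Krt8 was 2.29 in basal, 2.85 in intermediate and 2.99 in superficial cells (geometric means), and it was higher in superficial than in basal cells in 6 of 6 libraries, by 0.39 ± 0.24 on the log2 scale (SD). Krt19 to Krt7 was 0.744, 0.714 and 0.547, and it was lower in superficial than in basal cells in 6 of 6 libraries, by -0.44 ± 0.097. Both had a two-sided exact sign-flip permutation p of 0.03125, the smallest that 6 libraries allow. Benjamini-Hochberg adjustment over the 13 ratio tests gave 0.102, so neither passed. At that smallest p, the adjusted value depends on how many of the 13 tests reach it. It does not depend on the size of the differences, so the correction cannot decide about these pairs. Krt14 and Krt15 together to Krt5 gave 3.70, 3.66 and 3.30, and its adjusted p-values by the same permutation test were 0.906, 0.244 and 0.528. Krt13 held 0.0415 UMIs per Krt4 UMI in basal and 0.0445 in intermediate cells (exact permutation p = 0.688), so Krt4 was detected far in excess of Krt13.

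To compare the share of cells with a UMI at equal depth, each cell was thinned to 3000 UMIs, which left out 923 basal, 2520 intermediate, 207 superficial and 5436 mesenchymal cells with fewer. Krt14 was seen in 4.93 ± 2.40% of basal, 0.689 ± 0.382% of intermediate and 0.391 ± 0.350% of superficial cells (SD, n = 6), against 0.698 ± 1.11% of mesenchymal cells. Without thinning the shares were 6.40%, 1.03%, 0.824% and 0.482%. The share in basal cells was highest in healthy replicate 2 (8.97%, 95% Wilson interval 7.29% to 11.0%) and lowest in chronic replicate 2 (1.97%, 1.102% to 3.49%). On the mean the intermediate and superficial shares did not exceed that of mesenchymal cells, although intermediate cells had the higher share in 5 of 6 libraries. Chronic replicate 2 was the exception, with Krt14 in 2 of 69 mesenchymal cells (2.90%, 95% Wilson interval 0.799% to 9.97%). Median UMIs before thinning were 3148 to 4709 in the basal class and 5590.0 to 10477 in the superficial class, counted over the genes used here, and 1958.5 to 3637.5 in mesenchymal cells.

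Krt20 was seen in 7.59 ± 2.48% of basal, 16.2 ± 3.68% of intermediate and 37.6 ± 6.45% of superficial cells after thinning, with 4.03 ± 2.86% in mesenchymal cells (10.5%, 26.0%, 64.2% and 4.64% without thinning). Krt5 was seen in 90.4 ± 3.27%, 74.1 ± 3.43% and 31.9 ± 12.4% of the layers, with 19.4 ± 13.4% in mesenchymal cells (93.3%, 85.9%, 55.4% and 15.6% without thinning). Krt8, Krt18, Krt7 and Krt19 were each seen in more than 91% of the cells of every urothelial layer on average. UMIs of the abundant keratins were also met in cells that should lack them, since Krt18 had a UMI in 71.8 ± 23.03% of mesenchymal cells. Krt5 UMIs per 100 Krt18 UMIs were 7.22 to 22.7 in mesenchymal cells and 0.724 to 4.47 in superficial cells, so superficial cells held less Krt5 for their Krt18 than that background in each library. That ratio also reflects the high Krt18 of superficial cells. In CPM, Krt5 was 195, 263, 74.3, 71.7, 212 and 129 in superficial cells (library order healthy, acute and chronic). Mesenchymal cells held 27.5, 62.3, 53.6, 50.4, 83.1 and 221 CPM, so only chronic replicate 2 was lower in superficial cells.

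Both partners of the luminal pair, Krt8 and Krt18, were seen together in 90.7%, 96.1% and 98.9% of thinned basal, intermediate and superficial cells, and in 38.0% of mesenchymal cells, which should lack both. Among the cells with Krt18, Krt8 was seen in 91.2%, 96.2% and 98.9% of the 3 layers, the same as its share in all their cells. Krt18 was seen in 99.5%, 99.9% and 100% of those cells on average, so both shares of Krt8 could hardly differ. Krt5 was seen in 94.7% of the 223 basal cells with Krt14 (mean over libraries, 84.8% to 100.0%), next to 90.4% of all basal cells. Among Krt20-bearing cells, Krt5 was seen in 90.5% of 280 basal, 68.9% of 3119 intermediate and 25.6% of 1023 superficial cells, near or below its share in each layer as a whole. Across the 3419 to 5034 non-cycling thinned urothelial cells of each library, the mean Pearson r was 0.44 for Krt5 with Krt15 (0.37 to 0.51 over libraries), 0.35 for Krt8 with Krt18 and 0.30 for Krt7 with Krt19. Among other pairs, it was 0.31 for Krt4 with Krt15 and 0.26 for Krt7 with Krt18, whereas the mucosal pair Krt4 with Krt13 had 0.022. For Krt15 with Krt18 it was -0.38 and for Krt5 with Krt18 -0.28. All layers were pooled, so the layer differences enter these values. Those values describe cells that share a library and are limited by sparse counts, and the value for the rare Krt14 with Krt5 was 0.083.

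Cycling cells, called from 43 S phase and 54 G2/M genes, were compared with non-cycling cells of the same layer and library. Raising the bound from 2 to 4 median absolute deviations lowered their number in every layer and library. It fell from 646 to 70 intermediate cells in healthy replicate 2 and from 777 to 600 basal cells in acute replicate 1. With the library as a term, in basal cells 2 of 10 members passed, 1 higher and 1 lower, against 13.7% of all genes tested (8% higher, 5.66% lower). In intermediate cells 3 of 10 passed, 2 higher and 1 lower, against 11.7% (7.25% higher, 4.46% lower). In superficial cells 4 of the 8 that could be tested passed, all lower, against 23% (12.4% higher, 10.6% lower). No member passed in any layer when the library term was left out (edgeR), which is not read as particular to the keratins. Krt14 was the member with the largest difference. The rule for naming members asked for all libraries to move to one side, so such agreement adds no support in the cycling comparisons.

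Krt14 in cycling basal cells was 70.8 and 132 CPM in the healthy, 136 and 70.1 in the acute and 25.1 and 15.2 in the chronic libraries, against 21.9, 59.99, 30.5, 25.6, 23.5 and 11.02 CPM in non-cycling basal cells. Cycling cells were higher in 6 of 6 libraries, by 1.47 ± 0.15 on the log2 scale (adjusted p = 1.0e-07, edgeR), and the smallest difference was that of chronic replicate 1. The chronic libraries rest on 13 and 9 Krt14 UMIs in cycling cells, against 70 to 561 in the other 4. The cycling basal cells also had lower (more basal) median scores than the non-cycling ones in 5 of 6 libraries, except chronic replicate 1. When basal cells were split at the stricter score bound, Krt14 was higher in cycling cells below it and above it in all 4 healthy and acute libraries. In the chronic libraries cycling cells were higher above the bound (28.3 against 25.5 CPM in chronic replicate 1 and 30.6 against 3.69 in chronic replicate 2) but lower below it (15.5 against 18.4 and 3.01 against 18.7), where they held 2 and 1 Krt14 UMIs.

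In intermediate cells Krt14 was 4.89, 25.05, 5.06, 10.97, 5.41 and 2.52 CPM in cycling and 0.963, 5.73, 2.82, 2.29, 1.83 and 1.15 CPM in non-cycling cells. All 6 libraries were higher in cycling cells, by 1.73 ± 0.21 on the log2 scale (adjusted p = 0.000113, edgeR). Cycling cells of healthy replicate 1 and chronic replicate 2 held 8 and 6 Krt14 UMIs, and the others 30 to 66. In acute replicate 1 and chronic replicate 2 the cycling levels lay below those of mesenchymal cells (22.8 and 14.7 CPM). Cycling intermediate cells had more basal median scores in both healthy libraries and chronic replicate 1, and less basal ones in the others. Krt4 was also higher in cycling intermediate cells in 6 of 6 libraries (0.31 ± 0.074, adjusted p = 0.0150, edgeR). It was not called without healthy replicate 1 (0.27, adjusted p = 0.0626) or with cycling above 4 median absolute deviations (0.061, adjusted p = 0.719). Krt7 was lower in 5 of 6 (-0.19 ± 0.056, adjusted p = 0.0399, edgeR). It was not called without healthy replicate 1, acute replicate 2 or chronic replicate 2 (-0.191, -0.143 and -0.197, adjusted p = 0.0827, 0.123 and 0.0983). Nor was it called with stricter score bounds (-0.14, adjusted p = 0.0805) or layers from sub-clusters (-0.048, adjusted p = 0.447). Krt20 was lower in cycling basal cells in 5 of 6 libraries (-0.58 ± 0.14, adjusted p = 0.00654, edgeR). It was not called without acute replicate 1 (-0.41, adjusted p = 0.141) or with DESeq2 (-0.54, 0.0814), sub-clusters (-0.34, 0.101), stricter score bounds (-0.34, 0.342) or bounds within each library (-0.37, 0.0516). Cycling basal cells held 16 to 76 Krt20 UMIs per library. The main basal and luminal keratins Krt5, Krt15, Krt8, Krt18 and Krt19 differed by -0.15 to 0.093 between cycling and non-cycling basal or intermediate cells, and none passed the threshold with the layers and cycling calls used here. That depended on the processing. Krt18 in basal cells (-0.15, adjusted p = 0.0515, edgeR) passed in 8 of 17 alternatives, with differences of -0.27 to -0.14. Above 4 median absolute deviations Krt19 passed in basal (-0.19, adjusted p = 0.0489) and intermediate cells (-0.30, adjusted p = 0.00626), and Krt15 (-0.36, adjusted p = 0.0280) and Krt5 (-0.30, adjusted p = 0.0376) were lower in cycling intermediate cells. With layers from sub-clusters Krt15 (0.41, adjusted p = 1.6e-10) and Krt5 (0.29, adjusted p = 3.1e-07) were instead higher there. In intermediate sub-clusters Krt18 (-0.23, adjusted p = 2.0e-05) and Krt8 (-0.13, adjusted p = 0.0129) were lower, while Krt8 was higher in cycling basal cells (0.21, adjusted p = 0.0141).

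**Figure D4:**
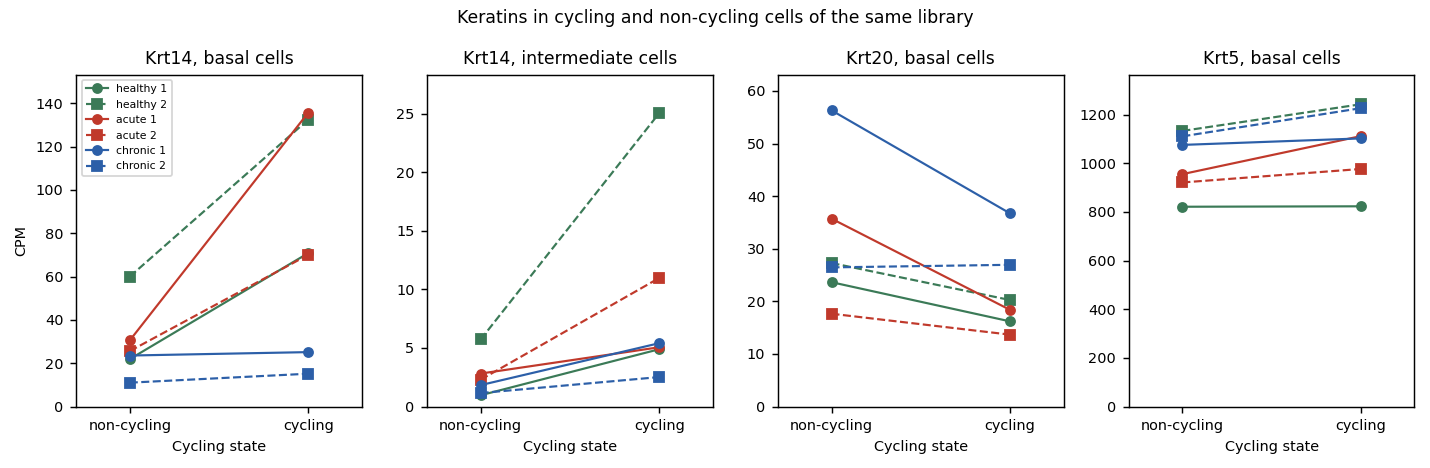
Levels (CPM, linear axes from 0) of Krt14 in basal and intermediate cells and of Krt20 and Krt5 in basal cells, non-cycling and cycling, with 1 line per library. Krt14 is higher in cycling cells in 6 of 6 libraries in both layers, by little in the chronic basal cells.

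Cycling superficial cells numbered 50 to 343 in the 5 libraries used (healthy replicate 1 had 12 and was left out). Krt15 was lower in cycling cells in 5 of 5 libraries (-0.31 ± 0.064, adjusted p = 0.000288, edgeR), as was Krt7 (-0.23 ± 0.055, adjusted p = 0.00207), which was not called with stricter score bounds (-0.15, adjusted p = 0.0692). Krt5 (-0.28 ± 0.076, adjusted p = 0.00479) and Krt20 (-0.30 ± 0.090, adjusted p = 0.0114) were lower in 4 of 5. Krt20 was not called without acute replicate 1 (-0.13, adjusted p = 0.393) or chronic replicate 2 (-0.22, adjusted p = 0.131), or with DESeq2 (-0.26, adjusted p = 0.254). When superficial cells were defined by sub-clusters, Krt5 and Krt15 differed by 0.34 and 0.21 instead (adjusted p = 0.000271 and 0.00980), so their direction depends on how the layer is drawn. With stricter score bounds they differed by 0.15 and -0.0095 (adjusted p = 0.376 and 0.961). Neither passed with bounds set within each library (adjusted p = 0.668 and 0.163).

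Injury was then compared with health within each layer. With 2 libraries against 2, no gene passed in any of the 6 comparisons (edgeR, 0% of all genes tested, with 283 to 761 genes below an unadjusted p of 0.05). DESeq2 called 4 to 49 genes per comparison, with Krt5 in superficial cells of the acute libraries as its only member (0.123% of all genes tested there). In basal cells member differences ran from -0.50 to 0.32 on the log2 scale in the acute libraries and from -1.35 to 0.66 in the chronic ones. The lowest of these, Krt14 in chronic basal cells (95% interval -2.62 to -0.094), had 23.5 and 11.02 CPM against 21.9 and 59.99, so the groups overlapped. In intermediate cells they ran from -0.36 to 0.22 and from -1.12 to 0.59. After thinning, Krt14 was seen in 3.18% and 1.97% of chronic basal cells against 4.66% and 8.97% of healthy ones, which was not tested. The share of chronic replicate 2 lay below that of its mesenchymal cells (2.90%).

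Krt5 in superficial cells was 74.3 and 71.7 CPM in the acute and 195 and 263 in the healthy libraries, and Krt15 was 241 and 251 against 384 and 796. Both acute libraries lay below both healthy libraries for both genes, which was a condition for naming them here and so adds no support. At equal depth Krt5 was seen in 16.99% and 17.8% of acute superficial cells and in 34.2% and 46.2% of healthy ones (shares of thinned cells, not tested), with 10.1% and 13.4% in acute and 6.84% and 17.7% in healthy mesenchymal cells as the background. The Krt15 shares were not compared, since that of superficial cells in acute replicate 2 (40.8%) lay below its mesenchymal share (44.96%). In CPM, mesenchymal cells held 181 and 220 of Krt15 in the acute and 89.3 and 240 in the healthy libraries. The differences were -1.63 ± 0.28 for Krt5 (unadjusted p = 0.000172, adjusted p = 0.232, edgeR) and -1.25 ± 0.44 for Krt15 (unadjusted p = 0.0184, adjusted p = 0.627), so neither passed. Without healthy replicate 1 and acute replicate 2, which leaves 1 library in each arm and takes the spread from the chronic ones, they were -1.89 (adjusted p = 0.0187) and -1.796 (adjusted p = 0.0615). DESeq2 gave Krt5 an adjusted p of 0.000468. Bounds set within each library gave -2.23 (adjusted p = 0.0107, edgeR), and superficial cells drawn from sub-clusters gave -0.076 (adjusted p = 1). In chronic superficial cells Krt5 was 212 and 129 CPM and overlapped the healthy values (-0.43 ± 0.27, adjusted p = 0.892, edgeR).

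When the change from intermediate to superficial was itself compared between acute and healthy libraries, 3 members passed, all lower in acute libraries, against 1.41% of all genes tested (1.09% lower). The change was more negative in acute libraries for Krt5 (by -1.56 ± 0.16 on the log2 scale, adjusted p = 1.5e-07, edgeR), Krt15 (-1.39 ± 0.18, adjusted p = 6.4e-06) and Krt19 (-0.55 ± 0.14, adjusted p = 0.0288). Mean Krt5 and Krt15 were lower in superficial than in intermediate cells in both conditions. Mean Krt19 was 1854 CPM in intermediate and 1989.6 in superficial cells of the healthy libraries (n = 2), against 1914 and 1397 CPM in the acute ones. Krt19 was no longer called without healthy replicate 1 (adjusted p = 0.405) or acute replicate 2 (adjusted p = 0.423), with doublets kept (0.0536) or with cycling above 4 median absolute deviations (0.0571). The calls depended on how superficial cells were drawn. With bounds set within each library the differences were larger, at -2.12 for Krt5, -1.96 for Krt15 and -0.82 for Krt19 (adjusted p = 1.2e-11, 1.2e-09 and 0.000516, edgeR). With superficial cells from sub-clusters the differences were -0.11 for Krt5 (adjusted p = 0.979), -0.37 for Krt15 (adjusted p = 0.858) and 0.091 for Krt19 (adjusted p = 0.986), and with stricter score bounds -0.99, -0.87 and -0.59 (adjusted p = 0.127, 0.312 and 0.311).

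Superficial cells drawn by score also lay in superficial sub-clusters in 27.2% and 42.9% of cases in the healthy libraries, 83.1% and 91.7% in the acute and 55.3% and 82.6% in the chronic ones. In superficial sub-clusters Krt5 was 69.9 and 93.1 CPM in the healthy, 74.8 and 82.6 in the acute and 127 and 109.7 in the chronic libraries. Healthy and acute values overlapped there. The score-drawn superficial share of non-cycling urothelial cells was 4.12% and 5.55% in the healthy, 9.45% and 9.24% in the acute and 17.01% and 10.5% in the chronic libraries. The same test for chronic against healthy called 0 members with 0.0702% of all genes (edgeR, 3 members below an unadjusted p of 0.05, 0 by DESeq2), but 2 with the stricter cell filter (0.366% of all genes) and 4 with bounds set within each library (3.03%). For the basal step in acute libraries it called 0 members with 0% of all genes (edgeR, 605 genes and 2 members below an unadjusted p of 0.05, 0 genes by DESeq2).

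**Figure D5:**
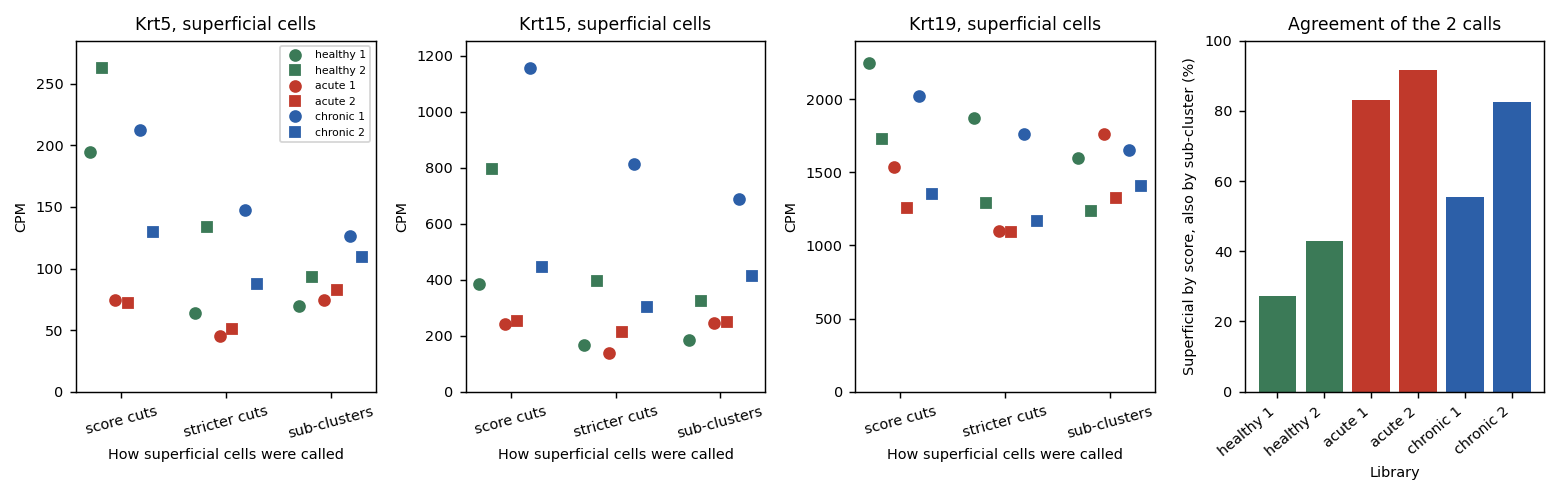
Levels of Krt5, Krt15 and Krt19 (CPM, linear axes from 0) in superficial cells of each library, drawn by the score, by stricter score bounds and by sub-clusters, with bars for the share (%) of score-drawn cells that also lay in superficial sub-clusters. By score both acute libraries lie below both healthy ones for Krt5, and by sub-clusters they overlap.

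The type I to type II ratio differed between acute and healthy libraries by 0.15, 0.21 and 0.32 on the log2 scale in basal, intermediate and superficial cells, with two-sided exact permutation p-values of 0.667, 0.333 and 0.333. In chronic libraries the differences were -0.080, -0.090 and 0.032, each with an exact permutation p of 1. No 2-against-2 comparison can fall below 0.333.

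Over the 18 values of layer and library, the genes with the closest course to each member (Pearson r of log2 CPM, among 10483 candidates that are neither keratins nor layer markers) were Rfng (0.98) and Trim13 (0.97) for Krt4, Entpd5 and Padi4 (both 0.98) for Krt5, Gsto1 (0.99) and Cbr2 (0.98) for Krt15, and Dlk2 and Ror2 (both 0.96) for Krt14. For Krt13 they were Dgat1 and Trim13 (both 0.92). For the luminal set they were Dpcd (0.98) and Fam136a (0.97) for Krt18, Prodh and Daglb (both 0.96) for Krt8, and Card14 (0.98) and Plcd1 (0.97) for Krt20. Krt7 came closest to Alad (0.95) and Vsig2 (0.93), and Krt19 to Fbp2 (0.89) and Gstt2 (0.86), the lowest values of the 10. Layers of 1 library share its cells, so the 18 values are not independent.

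Of the 13 other keratins listed in all tables, 10, 8 and 7 could be tested in the 3 layer comparisons, in which 45.4%, 50.5% and 58.8% of all genes passed. Against intermediate cells, 3 were higher and 4 lower in basal cells, and 0 were higher and 7 lower in superficial cells, with medians of -0.10 and -0.84 on the log2 scale (0.012 and 0.0032 over all genes). Between superficial and basal cells 1 was higher and 4 were lower. Krt23, a type I keratin, was the most abundant at 340.1, 236 and 95.5 CPM in basal, intermediate and superficial cells, and fell by 1.68 on the log2 scale from basal to superficial (adjusted p = 1.4e-08, edgeR). Krt10, a type I keratin of differentiating skin, was at 67.7, 73.0 and 54.8 CPM, its epidermal partner Krt1 at 25.1, 31.4 and 14.8 CPM, and the type II keratin Krt78 at 15.8, 24.7 and 20.1 CPM.

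Filament partners, which anchor keratins at desmosomes and hemidesmosomes, were given by a list of 16 genes, of which Dsc3 and Eppk1 were not listed in all tables. Between basal and intermediate cells 4 were higher and 4 lower of 14 tested (45.4% of all genes passed). On the log2 scale the hemidesmosome linker Dst (0.93) and the plakophilin Pkp3 (0.70) were the highest in basal cells, and the plakophilin Pkp2 (-0.49) and the desmosomal cadherin Dsc2 (-0.48) the lowest. Between superficial and intermediate cells 6 were higher and 5 lower of 14 tested (50.5% of all genes), led by the cornified-envelope linker Evpl (0.68) and the plakophilin Pkp1 (0.55) on one side and the desmosomal cadherin Dsg3 (-2.24) and the keratin-binding protein Tchp (-0.53) on the other. Dsg3 was rare, at a mean of 2.60 CPM in intermediate and 0.599 CPM in superficial cells, so its change rests on few UMIs. Between superficial and basal cells 4 were higher and 6 lower of 13 tested (58.8% of all genes), led by the cornified-envelope linker Evpl (1.09) and the desmosomal cadherin Dsc2 (0.81), and by the hemidesmosome linker Dst (-1.17) and the plakophilin Pkp3 (-0.73). The median of the partners was 0.038, -0.017 and 0.018 in the 3 comparisons, near that of all genes (0.012, 0.0032 and 0.0033).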

How the data were processed

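Mucosa of 6 libraries was sequenced by droplet-based single-cell RNA sequencing. The authors aligned reads to mm10 with Cell Ranger (processing notes of the submitters) and deposited raw UMI counts per gene and cell, without normalization. No barcode exceeds about 10% mitochondrial UMIs. The table of healthy replicate 1 ends within its last line, which was dropped, and the tables of 2 libraries (healthy 1, acute 1) omit rare genes, so genes were limited to the 14450 listed in all 6 tables, or 14334 without mitochondrial and ribosomal genes. The keratins, gene lists and tests were chosen with earlier results of these data known.

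The filter on cells asked for more than 500 genes and less than 10% of UMIs from mitochondrial genes. Doublets (4469) were called with Scrublet scores at 0.8% per 1000 cells, and 2207 further cells in doublet-rich or unnamed clusters were left out. Leiden clusters (scanpy 1.11.5, leidenalg 0.10.2, resolution 0.8, 30 components, 20 neighbors) were named from markers without keratins. The layer score was the difference of the z scores of 9 superficial and 9 basal markers, with bounds at its 20th and 90th percentile. Within 0.25 of the basal bound lay 6.87% of the urothelial cells, and within 0.25 of the superficial bound 5.28%. A cell was called cycling where its S or its G2/M score exceeded the median by 2 median absolute deviations (MADs).

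For each library, counts were added up over the cells of a class (20 cells or more) and tested with edgeR 4.0.16 (TMM, filterByExpr, quasi-likelihood test) in R 4.3.3, with Benjamini-Hochberg adjustment at 0.05 over all genes tested. Library was a term within layers, and conditions were compared 2 against 2 libraries. In simulated counts with 200 genes changed 4-fold, 98.5% were recovered between superficial and intermediate cells (11914 genes, 10 false calls) and 77.5% between acute and healthy intermediate cells (13144 genes, 11 false calls). Ratios were tested by exact sign-flip permutation over libraries. Likeness used log2(CPM + 1). DESeq2 1.42.0 and other filters, layer definitions and left-out libraries were alternatives.

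All members were described in the layer comparisons. For cycling and injury, members are named if their unadjusted p was below 0.05 and all libraries moved to one side. Other called members were named after their values were seen. Other keratins are named at a mean of at least 20 CPM in a layer, filament partners for the 2 largest called changes in each direction.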

Additional observations from a re-analysis of the deposited data

Results flagged for a closer look

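The 10 members in 3 layer comparisons made 30 groups of 6 libraries, of which 28 were tested, since Krt13 had no UMI in superficial cells of healthy replicate 1 and so lacked a value there in both superficial comparisons. Of the 28, 2 held a library far from the others, and chance flags about 1 in 20. The log2 difference of Krt14 between basal and intermediate cells was 4.51 in healthy replicate 1, with the nearest library at 3.69 and the lowest at 3.26. The difference of Krt20 was -0.564 in chronic replicate 1, the library with the fewest basal cells (291), with the nearest library at -1.22 and the lowest at -1.47.

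The change from intermediate to superficial cells differed between acute and healthy libraries for 3 members by an interaction term (edgeR's quasi-likelihood test, adjusted over all genes tested). Of all genes tested, 1.41% passed. The difference was -1.56 for Krt5 (adjusted p = 1.5e-07), -1.39 for Krt15 (adjusted p = 6.4e-06) and -0.554 for Krt19 (adjusted p = 0.0288). None of them passed when superficial cells were taken from sub-clusters (-0.11, -0.37 and 0.091) or by stricter score bounds (-0.99, -0.87 and -0.59). With bounds set within each library all 3 passed (-2.12, -1.96 and -0.82), a count not read as particular to the keratins.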

How the results depend on the processing

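The layer comparisons kept their count of members called within 1.5 times of 10, 9 and 9 under every alternative tried, and the uncalled difference of Krt19 between superficial and basal cells turned to -0.038 with stricter score bounds. The cause of the shifts given here was not tested. Without the library as a term, Krt7 and Krt19 were not called between basal and intermediate cells (adjusted p = 0.292 and 0.255, edgeR), nor Krt7 and Krt14 between superficial and intermediate cells (0.423 and 0.0880). Cycling calls moved most. Percentages give the share of all genes called under the same setting. Counts without one, here and in the paragraphs below, are not read as particular to the keratins. In basal cells 2 members (13.7%) became 1 with DESeq2 (6.3%) and with stricter bounds (9.97%), 4 without the filter on low counts (13.3%) and with doublets kept (14.4%), and 5 with cycling above 4 MADs (25.3%). Leaving out single libraries gave 1 (without acute replicate 1) to 4 (without healthy replicate 2 and without chronic replicate 1). In intermediate cells 3 (11.7%) became 5 above 4 MADs (29.1%), 8 with layers from sub-clusters (9.59%), and 1 (without healthy replicate 1) to 3 leaving out single libraries. In superficial cells 4 (23%) became 2 with stricter bounds (16.1%) and with bounds set within each library (19.5%), and 3 to 5 leaving out single libraries. Without the library as a term 0 were called in each layer (edgeR). Krt5 in cycling superficial cells turned to 0.34 with sub-clusters and 0.15 with stricter bounds, and Krt15 to 0.21 with sub-clusters.

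For acute superficial cells, DESeq2 (0.123%), bounds within each library (0.256%), and leaving out both healthy replicate 1 and acute replicate 2 (0.281%) each called 1 member, and the last of these called 1 in chronic basal cells (0.288%). The 3 members whose superficial change differed between acute and healthy became 0 with sub-clusters and with stricter bounds (Krt19 turned to 0.091), and 2 to 3 leaving out single libraries. The corresponding chronic count of 0 became 2 with the stricter cell filter (0.366%), 4 with bounds within each library (3.03%), and 0 to 1 (without chronic replicate 1) leaving out single libraries. The basal count of 0 became 0 to 2 (without healthy replicate 2).

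For type I to type II, on the log2 scale, basal minus intermediate was -0.00090 with sub-clusters. Superficial minus intermediate was 0.1316 with sub-clusters and -0.013 as the mean of per-cell shares. Superficial minus basal was 0.1325 with sub-clusters, -0.035 as that mean, and -0.0062 to 0.054 leaving out single libraries. Krt14 and Krt15 to Krt5 was -0.12 (sub-clusters), -0.026 (stricter bounds) and -0.050 to 0.056 (single libraries left out) for basal minus intermediate, and 0.029 for superficial minus basal with sub-clusters. Krt13 to Krt4 ran from -0.30 to 0.029 leaving out single libraries. Chronic minus healthy ran from -0.23 to 0.066 in basal, -0.22 to 0.039 in intermediate and -0.13 to 0.19 in superficial cells, and was -0.022 there with stricter bounds. Without thinning the shares were 0.824% (Krt14, superficial), 96.8% and 81.9% (Krt15, intermediate and superficial), 10.5%, 26.0% and 64.2% (Krt20, all layers), 37.4% and 24.6% (Krt4, intermediate and superficial) and 85.9% and 55.4% (Krt5, the same layers).

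The labels do not say that replicate numbers pair the samples. Deviations of same-numbered libraries had r = 0.45 between healthy and acute and -0.42 between healthy and chronic basal cells, and the fit with the replicate number as a block called 0 members in every injury comparison. With the chronic numbers crossed, a pairing chosen after seeing the data, the block also called 0 members. The injury comparisons rest on 2 libraries per condition, the rare members Krt13 and Krt14 on few UMIs, and depth differed between layers.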
